A study of Mus musculus with 20 samples.

Results

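The 34 genes described here make melanin or build and move the melanosome, the organelle that holds it. They were taken by name from a list of pigment enzymes, melanosome proteins and proteins of lysosome-related organelles. The list was drawn up with earlier results of these data known. All 34 were found among the 46603 gene identifiers of the count table, each under 1 identifier. RNA was sequenced from B16F10 cells, an established mouse melanoma line that makes melanin, and from OT-I/Cas9 CD8 T cells, which carry a transgenic T cell receptor and Cas9 and were grown with IL-2, IL-7 and IL-15. The 4 melanoma groups were cells labelled Ccdc101 KO with thapsigargin (TG), Ccdc101 KO with dimethyl sulfoxide vehicle, control (labelled Ctrl) with TG, and control with vehicle. TG blocks the SERCA pumps that fill the endoplasmic reticulum with calcium, and was given at 50 ng/mL for 8 hours. Both melanoma genotypes were grown in medium with puromycin, and the sources used here do not say whether the KO line was a pool or a clone. The 6 T cell groups were control cells with TG or vehicle, each either left resting or stimulated through CD3 by an antibody (2.5 µg/mL, 24 hours), and cells labelled Atp2a2 KO with vehicle, resting or activated. Each of the 10 groups had 2 libraries. Whether these came from separate cultures is not stated, so p-values measure only the spread between these libraries, which may be technical.

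Melanin is made from tyrosine. Tyrosinase (Tyr) carries out the first and rate-limiting oxidation, and the related enzymes TYRP1 and DCT act on later intermediates of brown-black eumelanin. The reactions take place in melanosomes, which begin as endosomes that fill with PMEL fibrils. Their cargo is delivered by the adaptor AP-3 and by the BLOC complexes, whose loss causes Hermansky-Pudlak syndrome. Ripe melanosomes ride on actin through melanophilin (Mlph) and myosin Va (Myo5a). In melanocytes the transcription factor MITF drives many of these genes, and signals reach the cell through MC1R and KIT.

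Depth ran from 10663938 to 16204005 counts in the melanoma libraries. The 34 genes together took 1.55% of the counts in both libraries of KO cells with TG, 2.07% and 2.11% in KO cells with vehicle, 2.01% and 2.03% in control cells with TG and 2.37% and 2.41% in control cells with vehicle. Sgf29, the present name of Ccdc101, had 27.1 and 25 CPM (counts relative to the scaled library total) in KO cells with TG, 19.6 and 18.7 in KO cells with vehicle, 36 and 35.6 in control cells with TG and 29.6 and 28.2 in control cells with vehicle. KO libraries lay below control libraries of the same treatment, and the RNA was still present in them. The melanocyte markers Mitf, Sox10, Tyr, Tyrp1, Dct, Pmel and Mlana were all detected in every melanoma group. Macrophage markers summed to between 6 and 21 counts a library, erythroid markers to 0 and keratinocyte markers to at most 1. Endothelial markers summed to 3 to 12 counts and B cell markers to 1 to 5. The 7 fibroblast markers summed to 16.6 to 17.2 CPM in KO cells with TG, 12.5 to 13.3 in KO cells with vehicle, 20.5 to 25.8 in control cells with TG and 14.4 to 16.3 in control cells with vehicle, with Dcn and Lum at 0, and their part in the results was not tested. The 12 T cell markers summed to 45 to 122 counts in melanoma libraries, highest with KO and TG (98 and 122), and the part of such RNA in any result was not tested. Schwann and glial markers, which melanoma cells share in part, summed to 316 to 323 CPM in KO cells with TG, 824 to 833 in KO cells with vehicle, 205 to 209 in control cells with TG and 634 to 643 in control cells with vehicle, with Foxd3 at 0. In T cells the libraries labelled resting Atp2a2 KO had 455 and 452 CPM of Atp2a2, against 225 and 226 in resting control cells with vehicle. The libraries labelled activated Atp2a2 KO had 434 and 436 CPM, against 664 and 687 in activated control cells with vehicle. Against controls of the same label, this RNA was thus higher in resting and lower in activated KO libraries. Whether the resting label of the KO libraries is right was not tested. Those libraries enter no contrast here, and the T cell counts of calls without them are given with the T cell results.

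In control melanoma cells with vehicle the pigment RNAs spanned a wide range of levels. Levels between genes are given as CPM per kilobase of exon, mean ± SD of the 2 libraries. Tyrp1 was first at 2521 ± 39, followed by the fibril gene Pmel at 1299 ± 25.4, Dct at 694 ± 10.6, Mlana, which encodes the melanosome protein MART-1, at 595 ± 26.5, and the glycoprotein gene Gpnmb at 452 ± 6.01. The cargo GTPase gene Rab38 stood at 218 ± 2.12 and the transporter genes Slc45a2 and Slc24a5 at 153 ± 1.81 and 142 ± 0.919. Tyr, the gene of the rate-limiting enzyme, ranked 17 with 28.2 ± 0.0814 CPM per kilobase, within the spread of its neighbour Ap3d1 (28.3 ± 0.312). Hps5 (17.5 ± 0.241) and Gpr143 (17.4 ± 0.671) did not differ beyond their spread, nor did Hps1, Lyst, Bloc1s1 and Hps6, which all lay between 3.74 and 3.80. At the low end were Oca2 at 0.864 ± 0.0114, Kit at 0.628 ± 0.0402, Trpm1 at 0.469 ± 0.0129 and Slc24a4 at 0.199 ± 0.0485. Ednrb, the endothelin receptor gene of melanoblasts, had 1 count over all 8 melanoma libraries and was not tested, which leaves 33 members in the melanoma fits.

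Promoter windows from RefSeq (GRCm38.p6, 250 bases before to 50 after a start) were found for 29 of the 34 members, and none for Gpr143, Mlana, Pmel, Rab38 or Slc45a2. They were searched on both strands for TCATGTG, the core of the M-box that MITF is known to bind, which contains the E-box CATGTG. The core was found in windows of 8 of the 29 members, or 8 of their 32 windows, against 1239 of all 32851 windows (3.77%). The shorter CATGTG was in 11 of the 32 windows against 14.2% of all, and the palindromic E-box CACGTG in 10 of the 32 against 7.15% of all. The matches to the core are printed with 10 bases on each side, 5′ to 3′ on the gene's strand, because they lie before 3 enzyme genes and 5 other members whose changes are given further on. Capitals mark the core, which reads CACATGA where it lies on the other strand.
Tyr: aaaaagttagTCATGTGctttgcagaa
Tyrp1: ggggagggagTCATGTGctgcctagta
Dct, farther: ttggctgggaCACATGAgcccaataaa
Dct, nearer: gcacttagggTCATGTGctaacaaaga
Mc1r: cacatgcccaTCATGTGgccaccctca
Slc24a5: ggagactgctCACATGAttcagcataa
Trpm1: caaatcctcaTCATGTGcccaccccaa
Tspan10: tgtgactcctCACATGAtaccactgtg
Hps1: caggccccggTCATGTGgctgagtcac
These stretches lie at chr7:87493518-87493544 on the minus strand for Tyr, chr4:80834156-80834182 on the plus strand for Tyrp1, and chr14:118052462-118052488 and chr14:118052381-118052407 on the minus strand for Dct. The others are chr8:123407020-123407046 (plus, Mc1r), chr2:125068104-125068130 (plus, Slc24a5), chr7:64153683-64153709 (plus, Trpm1), chr11:120442600-120442626 (plus, Tspan10) and chr19:42779977-42780003 (minus, Hps1). The core began 22 bases before the RefSeq start in Tyr, 47 in Tyrp1, 232 and 151 in Dct, 52 in Mc1r, 142 in Trpm1, 21 in Tspan10, 15 in Hps1 and 13 in Slc24a5. These are matches of letters, with no measurement of binding.

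The first question was what TG did to pigment RNAs in KO and in control cells. In KO cells 25 of the 33 members fell, 6 rose and 2 did not pass the test (edgeR's quasi-likelihood test, Benjamini-Hochberg adjusted p below 0.05). Of all 12540 genes 70.3% were called, 36.3% down and 34.1% up. The members' median log2 change was -0.50, against -0.020 over all genes. In control cells 22 fell, 8 rose and 3 did not pass, with 71.8% of all genes called (36.1% down, 35.7% up) and medians of -0.31 for the members and -0.00082 for all genes. 22 members fell in both genotypes and 6 rose in both: the transporter gene Slc24a4, the cargo gene Rab38, Bloc1s3, Hps1, and both AP-3 genes, Ap3b1 and Ap3d1. Gpnmb alone was called in opposite directions. The share of all genes called the same way in both genotypes was not computed, so these joint counts are a description. With most genes called, direction and size are given by role. In bulk RNA, fewer cells of a type and less RNA per cell cannot be told apart.

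**Figure D1:**
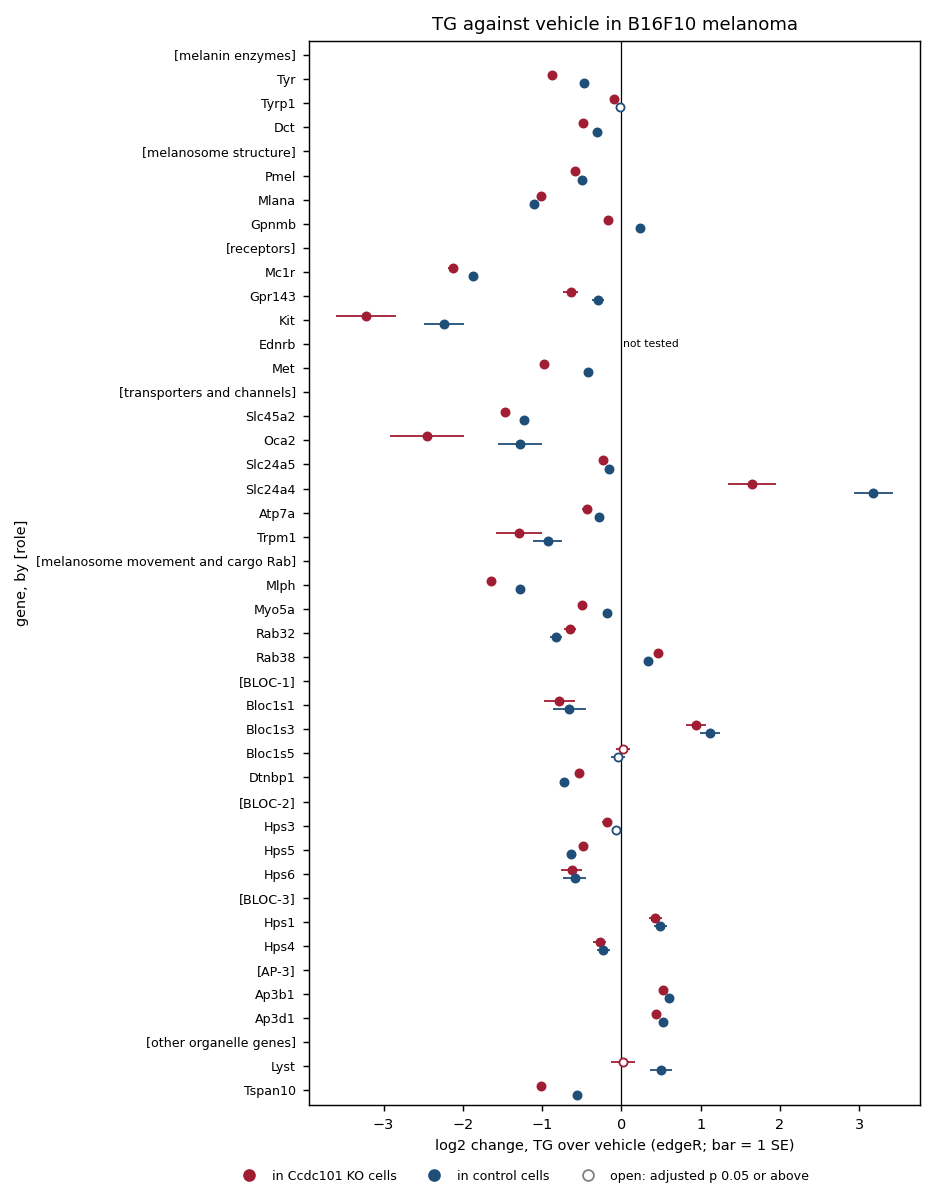
Log2 change with TG over vehicle (x axis) for each gene (y axis, by role) in Ccdc101 KO cells (red) and control cells (blue), from edgeR with bars of 1 SE; open points did not reach an adjusted p below 0.05. Most points lie left of 0; Slc24a4, Bloc1s3, Rab38, Hps1, Ap3b1 and Ap3d1 are filled and to the right in both genotypes, Lyst is filled to the right in control cells, and Gpnmb is filled on both sides.

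The enzyme RNAs did not fall alike. Tyr had 89.8 and 92.6 CPM in KO cells with TG, 167 and 169 in KO cells with vehicle, 153 and 156 in control cells with TG and 212 and 214 in control cells with vehicle. The groups did not overlap, and Tyr fell with TG by a log2 change of -0.88 ± 0.044 (SE) in KO cells (adjusted p = 2.3e-21) and -0.47 ± 0.040 in control cells (adjusted p = 1.1e-13). Dct had 2596 and 2669 CPM in KO cells with TG, 3648 and 3744 in KO cells with vehicle, 3532 and 3510.4 in control cells with TG and 4289.5 and 4411 in control cells with vehicle. Dct fell with TG in both (-0.49 ± 0.024 in KO cells, adjusted p = 1e-21; -0.31 ± 0.024 in control cells, adjusted p = 5.1e-15). Tyrp1 had 6299.6 and 6275 CPM in KO cells with TG, 6637 and 6753 in KO cells with vehicle, 7512 and 7463 in control cells with TG and 7469.7 and 7684 in control cells with vehicle. The TG and vehicle libraries of control cells overlapped for this most abundant member, and its change was -0.017 ± 0.021 (adjusted p = 0.48). In KO cells Tyrp1 fell by a log2 change of -0.091 ± 0.021 (adjusted p = 0.00023). With no filter on low counts the fall in control cells was called too (-0.067, adjusted p = 0.025).

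Among the genes of melanosome structure, the fibril gene fell and Gpnmb moved both ways. Pmel had 1407 and 1401 CPM in KO cells with TG, 2056 and 2155 in KO cells with vehicle, 2196 and 2299.8 in control cells with TG and 3197 and 3129.6 in control cells with vehicle. All KO libraries with TG lay below all others, and the TG effect was -0.58 ± 0.027 in KO cells and -0.49 ± 0.027 in control cells (adjusted p = 3.7e-22 and 7.1e-20). Mlana had 255 and 251 CPM in KO cells with TG, 500.4 and 524 in KO cells with vehicle, 306 and 316 in control cells with TG and 645 and 691 in control cells with vehicle. With TG, Mlana was 2.03-fold lower in KO cells and 2.15-fold lower in control cells. Gpnmb had 2705 and 2599 CPM in KO cells with TG, 2955 and 3034 in KO cells with vehicle, 3628 and 3751 in control cells with TG and 3093 and 3171 in control cells with vehicle. Gpnmb, a PMEL relative found in melanosomes and lysosomes, fell with TG in KO cells (-0.18 ± 0.025, adjusted p = 6.8e-08) and rose in control cells (0.24 ± 0.025, adjusted p = 4.4e-11). No library of one group overlapped the other in either genotype.

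**Figure D2:**
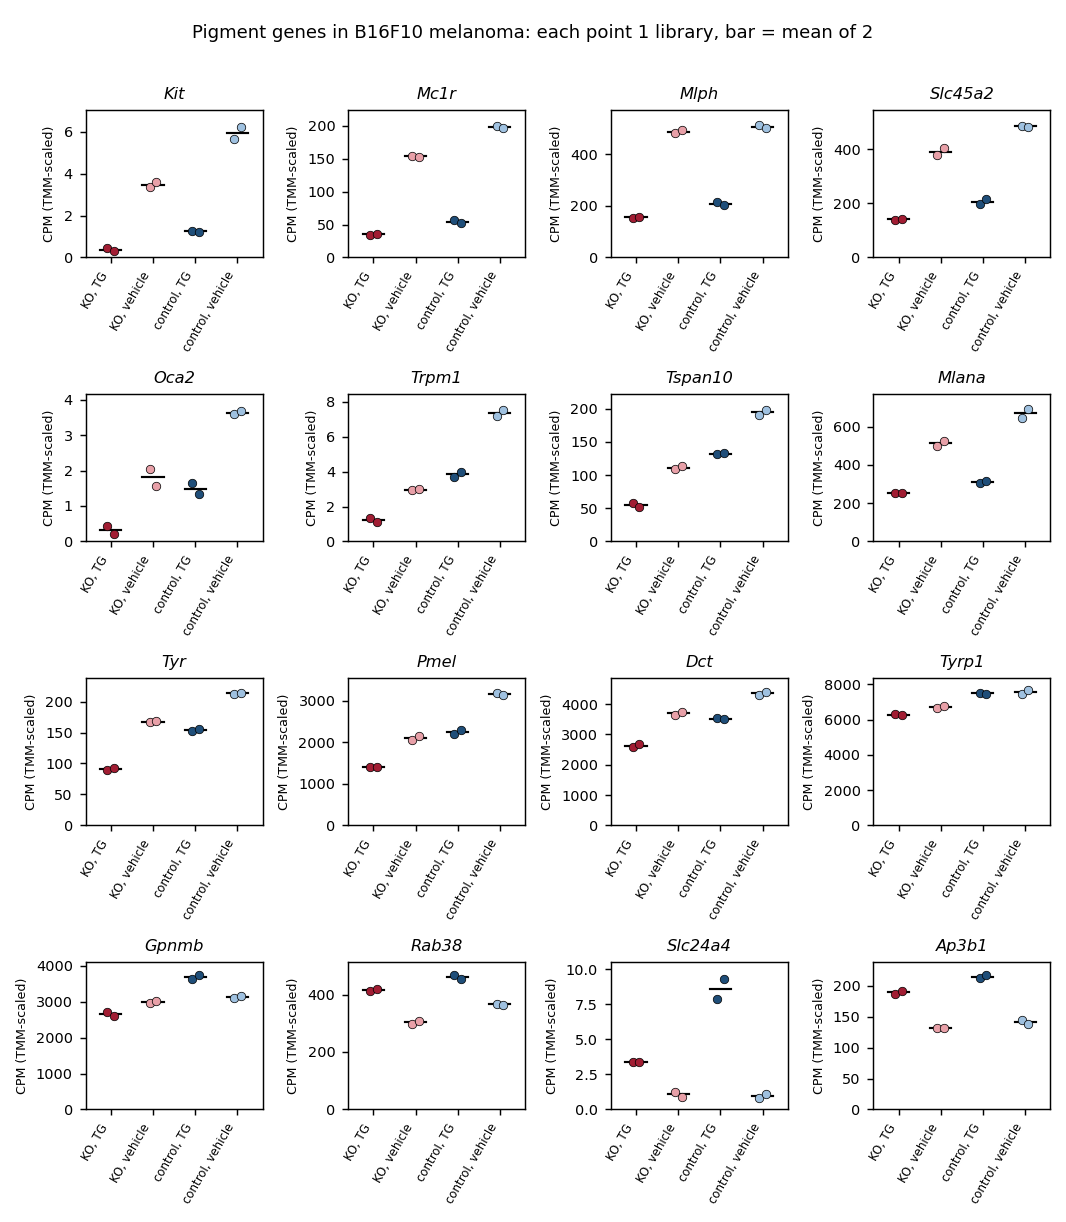
CPM (y axis, from 0, scaled by TMM) of 16 members in the 8 melanoma libraries, by group (x axis); each point is 1 library and each bar the mean of 2. Kit, Mc1r, Oca2 and Trpm1 show the lowest levels with KO and TG together, while Tyrp1 stays between 6275 and 7684 CPM in every library.

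All 4 receptor genes that were tested fell with TG in both genotypes. Mc1r had 34.8 and 35.2 CPM in KO cells with TG, 154 and 153 in KO cells with vehicle, 56.1 and 52.1 in control cells with TG and 199 and 196 in control cells with vehicle. Mc1r encodes the melanocortin receptor that raises cyclic AMP and turns pigment towards eumelanin, and it was 4.38-fold lower with TG in KO cells and 3.65-fold lower in control cells (adjusted p = 5.4e-32 and 2.7e-31). Kit had 0.444 and 0.295 CPM in KO cells with TG, 3.36 and 3.59 in KO cells with vehicle, 1.26 and 1.24 in control cells with TG and 5.66 and 6.24 in control cells with vehicle. These are few reads, 5 and 4 counts in KO cells with TG and 93 and 83 in control cells with vehicle, yet Kit, the stem cell factor receptor gene, fell most of all members (-3.22 ± 0.37 in KO cells, adjusted p = 4.3e-10; -2.24 ± 0.26 in control cells, adjusted p = 2.5e-10). Met had 208 and 214 CPM in KO cells with TG, 412 and 416 in KO cells with vehicle, 440.3 and 447 in control cells with TG and 593 and 593 in control cells with vehicle. The log2 change of Met, the hepatocyte growth factor receptor gene, was -0.97 ± 0.035 in KO cells and -0.42 ± 0.032 in control cells (adjusted p = 1.1e-26 and 4e-15). Gpr143, which encodes a receptor of the melanosome membrane, had log2 changes of -0.64 ± 0.094 in KO cells and -0.30 ± 0.081 in control cells. Without control TG replicate 2 the second was -0.16 and not called (adjusted p = 0.13).

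Transporters and channels fell in 5 of 6 cases in each genotype. Slc45a2 had 139 and 141 CPM in KO cells with TG, 377 and 403 in KO cells with vehicle, 197 and 215 in control cells with TG and 487 and 482 in control cells with vehicle. Slc45a2, a proton-coupled transporter of the melanosome, was 2.78-fold lower with TG in KO cells and 2.35-fold lower in control cells. Oca2 had 0.444 and 0.221 CPM in KO cells with TG, 2.03 and 1.58 in KO cells with vehicle, 1.65 and 1.33 in control cells with TG and 3.59 and 3.68 in control cells with vehicle. Oca2, the gene of a melanosomal anion channel protein that is mutated in the pink-eyed dilution mouse, fell, by log2 changes of -2.46 ± 0.46 (adjusted p = 1.1e-05) in KO cells and -1.28 ± 0.28 (adjusted p = 9.6e-05) in control cells. Its counts were 5 and 3 in the KO libraries with TG. Trpm1, a cation channel gene whose intron holds the microRNA gene Mir211, had 1.33 and 1.11 CPM in KO cells with TG, against 2.97 and 2.98 with vehicle, and 3.69 and 4.0 CPM in control cells with TG, against 7.18 and 7.51 with vehicle. The smallest falls were those of Slc24a5, a potassium-dependent sodium-calcium exchanger (-0.24 and -0.16), and of the copper pump gene Atp7a, which supplies tyrosinase (-0.43 and -0.28). Slc24a4 had 3.38 and 3.4 CPM in KO cells with TG, 1.25 and 0.876 in KO cells with vehicle, 7.86 and 9.32 in control cells with TG and 0.791 and 1.13 in control cells with vehicle. This relative of Slc24a5 went against the rest and was 3.14-fold higher with TG in KO cells (adjusted p = 5.9e-06) and 9.04-fold higher in control cells (adjusted p = 2.5e-15). Its counts were 81 and 98 in control libraries with TG, against 13 and 15 with vehicle. Slc24a5 shares 39.5% of its exon bases with Myef2 on the opposite strand. With no stated strand setting, how reads of the shared bases were counted is not known.

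Of the movement and cargo genes, the motor adaptor fell most. Mlph had 155 and 158 CPM in KO cells with TG, 483 and 493 in KO cells with vehicle, 214 and 204 in control cells with TG and 512 and 501 in control cells with vehicle. Mlph links RAB27A to myosin Va, and was 3.13-fold lower with TG in KO cells and 2.42-fold lower in control cells. The motor gene Myo5a fell less (-0.50 ± 0.034 in KO cells and -0.18 ± 0.034 in control cells). The related GTPase genes Rab32 and Rab38, which bring enzymes to the maturing melanosome, went apart. Rab38 had 413 and 419 CPM in KO cells with TG, 299 and 308 in KO cells with vehicle, 467 and 454 in control cells with TG and 367 and 364 in control cells with vehicle. Rab38 rose by 0.46 ± 0.034 in KO cells and 0.33 ± 0.034 in control cells (adjusted p = 1.6e-15 and 8.2e-12). Rab32 fell, by log2 changes of -0.65 ± 0.075 in KO cells and -0.83 ± 0.072 in control cells, with 33.4 and 29 CPM in control cells with TG, against 54.1 and 56.8 with vehicle.

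The organelle machinery was mixed. Ap3b1 had 187 and 192 CPM in KO cells with TG, 132 and 131 in KO cells with vehicle, 213 and 217 in control cells with TG and 145 and 139 in control cells with vehicle. Ap3b1 encodes the beta subunit of AP-3, mutated in the pearl mouse, and rose by 0.53 ± 0.042 and 0.60 ± 0.041 in KO and control cells. The delta subunit gene Ap3d1, mutated in the mocha mouse, rose by 0.43 ± 0.036 and 0.52 ± 0.035. In BLOC-1, Bloc1s3 had 16.5 and 16.2 CPM in KO cells with TG, against 8.05 and 9.02 with vehicle, and rose 1.92-fold there and 2.17-fold in control cells. Dysbindin (Dtnbp1) fell, by log2 changes of -0.53 ± 0.053 and -0.73 ± 0.051, Bloc1s1 by -0.79 ± 0.19 and -0.66 ± 0.21, and Bloc1s5 did not pass the test in either genotype (0.017 and -0.044). Bloc1s1 shares 55.9% of its exon bases with Rdh5 on the same strand, where reads cannot be assigned to 1 gene. Hps5 and Hps6 of BLOC-2 fell in both genotypes (-0.49 and -0.64 for Hps5, -0.63 and -0.59 for Hps6), and Hps3 passed the test in KO cells (-0.18 ± 0.062) and not in control cells (-0.065 ± 0.058), a difference that was itself not called (-0.11, adjusted p = 0.43). The 2 subunit genes of BLOC-3 went apart, Hps1 up by 0.43 and 0.49 and Hps4 down by -0.27 and -0.23. By DESeq2, Hps4 was not called in KO cells (-0.26, adjusted p = 0.069) or in control cells (-0.23, adjusted p = 0.11).

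Tspan10, a tetraspanin gene of pigment cells, had 58 and 52.2 CPM in KO cells with TG, against 109 and 113 with vehicle, and 132 and 133 in control cells with TG, against 191 and 199 with vehicle. It fell, by log2 changes of -1.01 ± 0.054 and -0.56 ± 0.045. Lyst, the lysosomal traffic regulator lost in the beige mouse, rose in control cells (0.50 ± 0.13, adjusted p = 0.021), while its KO libraries overlapped (0.019 ± 0.15, adjusted p = 0.92). With low counts filtered, this difference between genotypes was itself not called over all 8 libraries. The weakest of these calls depended on single libraries. In control cells Bloc1s1 was not called without vehicle replicate 1 or TG replicate 2 (-0.53 in both, adjusted p = 0.07 and 0.071), and Hps4 was not called without vehicle replicate 1 (-0.22, adjusted p = 0.057) or TG replicate 1 (-0.19, adjusted p = 0.097). Hps3 in control cells was called without TG replicate 2 (-0.17, adjusted p = 0.032), and in KO cells it was not called without vehicle replicate 1 (-0.10, adjusted p = 0.25) or TG replicate 1 (-0.14, adjusted p = 0.1). The rise of Lyst in control cells was not called when only the compared groups were fitted (adjusted p = 0.076).

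KO and control cells were then set against each other under the same treatment. SGF29, the product of Ccdc101, belongs to SAGA, a coactivator complex that acetylates histones, and reads methylated histone tails. With TG, 24 of the 33 members were lower in KO cells, 2 higher and 7 not called, where 31.5% of all genes were called (15% down, 16.6% up). Keeping every gene regardless of its counts gave 2657 higher and 1466 lower over the table, and 2 members higher and 23 lower. With vehicle, 19 were lower, 1 higher and 13 not called, where 25.7% of all genes were called (13.3% down, 12.4% up). By DESeq2 the calls over all genes with vehicle were 561 higher and 947 lower, against 1550 and 1668 by edgeR. The members' median log2 change was -0.42 with TG and -0.20 with vehicle, against 0.011 and 0.0031 over all genes. The members were chosen with earlier results of these libraries known, so their counts are a description. 17 members were lower in KO cells under both treatments, and Bloc1s5 was higher under both (0.35 ± 0.092 with TG and 0.29 ± 0.086 with vehicle). By DESeq2, 0 members were called higher under either treatment. For Bloc1s5 it gave 0.35 with TG (adjusted p = 0.066) and 0.28 with vehicle (adjusted p = 0.2). The share of all genes lower under both treatments was not computed.

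**Figure D3:**
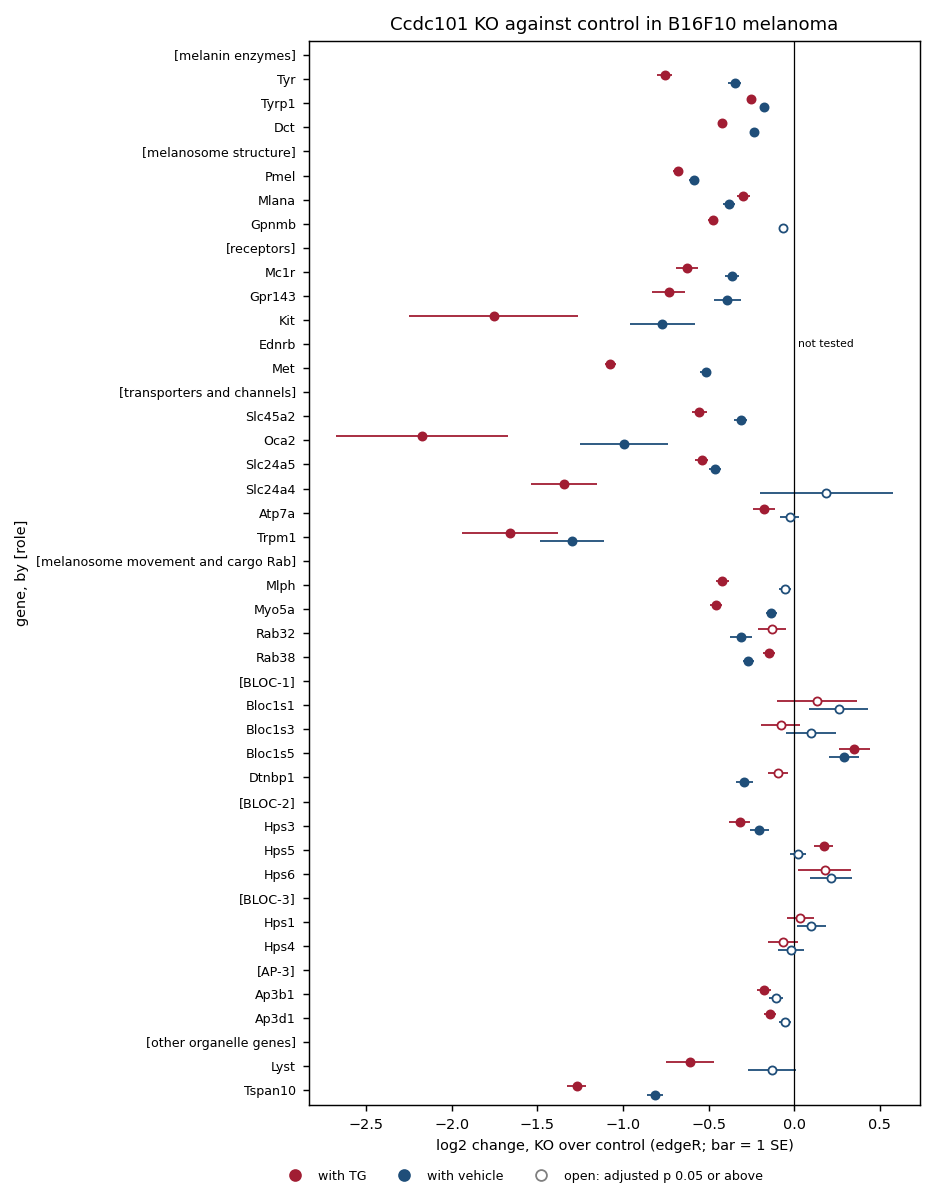
Log2 change of KO over control cells (x axis) for each gene (y axis, by role) with TG (red) and with vehicle (blue), from edgeR with bars of 1 SE; open points did not reach an adjusted p below 0.05. Points of the enzymes, structure genes, receptors and transporters lie left of 0 except Slc24a4 with vehicle, while the BLOC and AP-3 points lie between -0.32 and 0.35.

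By role, all 3 enzyme genes were lower in KO cells under both treatments, as were all 4 receptor genes tested. Tyr differed by -0.76 ± 0.045 with TG and -0.35 ± 0.039 with vehicle, Dct by -0.42 ± 0.024 and -0.24 ± 0.024, and Tyrp1 by -0.25 ± 0.021 and -0.18 ± 0.021. Met differed by -1.07 ± 0.035 and -0.52 ± 0.032, and Mc1r by -0.63 ± 0.065 and -0.37 ± 0.041. Kit was 3.38-fold lower with TG (adjusted p = 0.0053) and 1.7-fold lower with vehicle (adjusted p = 0.0021). Without KO TG replicate 2 the first was -1.47 and not called (adjusted p = 0.084), and by DESeq2 the second was not called (-0.79, adjusted p = 0.15). Of the structure genes, Pmel was 1.6-fold lower with TG and 1.5-fold lower with vehicle. Mlana differed by -0.30 ± 0.038 and -0.38 ± 0.034. Gpnmb was lower with TG (-0.48 ± 0.025, adjusted p = 6.3e-19) and just missed the threshold with vehicle (-0.065 ± 0.025, adjusted p = 0.053). It was called with vehicle under relative log expression scaling (-0.080, adjusted p = 0.016), and also without control vehicle replicate 1 (-0.10, adjusted p = 0.019) or KO vehicle replicate 2 (-0.10, adjusted p = 0.014).

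Transporters and channels were lower in 6 of 6 cases with TG and 4 of 6 with vehicle. Trpm1 was 3.16-fold lower in KO cells with TG (adjusted p = 9e-06) and 2.46-fold lower with vehicle (adjusted p = 6.1e-07). Oca2 differed by -2.17 ± 0.50 with TG and -1.0 ± 0.26 with vehicle, where it was not called by DESeq2 (adjusted p = 0.14) or without KO vehicle replicate 2 (-0.85, adjusted p = 0.05). Slc24a5 and Slc45a2 were lower under both treatments (-0.54 and -0.46, -0.56 and -0.31). Slc24a4 did not pass the test with vehicle (0.19 ± 0.39) and was 2.53-fold lower with TG (adjusted p = 4.7e-07). Atp7a passed with TG (-0.18 ± 0.064, adjusted p = 0.03) and not with vehicle (-0.025 ± 0.056), and was not called with TG without control TG replicate 2 (-0.093, adjusted p = 0.43), KO TG replicate 1 (-0.19, adjusted p = 0.085) or KO TG replicate 2 (-0.16, adjusted p = 0.19). For Atp7a the difference between the KO effects with TG and with vehicle was itself not called. Tspan10 differed by -1.27 ± 0.054 with TG and -0.81 ± 0.045 with vehicle (adjusted p = 2.9e-22 and 3.8e-18).

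Myo5a and Rab38 were lower in KO cells under both treatments (-0.46 and -0.13, -0.15 and -0.27). Without control vehicle replicate 1 the second Myo5a value was -0.095 and not called (adjusted p = 0.083). Mlph was called with TG (-0.42 ± 0.039) and not with vehicle (-0.054 ± 0.034, adjusted p = 0.26), and Rab32 the other way round (-0.13 ± 0.083 and -0.31 ± 0.064). The difference between the KO effects with TG and with vehicle was itself called for Mlph and not for Rab32. Among the 11 genes of BLOC-1, BLOC-2, BLOC-3 and AP-3, 5 were called with TG: Bloc1s5 and Hps5 (0.17) higher, and Hps3 (-0.32), Ap3b1 (-0.18) and Ap3d1 (-0.14) lower. With vehicle 3 were called, Bloc1s5 higher and Dtnbp1 (-0.29) and Hps3 (-0.20) lower. By DESeq2, Bloc1s5 was not called under either treatment. Nor were Hps5 with TG (0.17, adjusted p = 0.12) and Hps3 with vehicle (-0.22, adjusted p = 0.084). Several of these edgeR calls rested on 1 library. With vehicle, Bloc1s5 was not called without control replicate 1 (0.28, adjusted p = 0.07), control replicate 2 (0.27, adjusted p = 0.058) or KO replicate 1 (0.25, adjusted p = 0.12), Hps3 was not called without KO replicate 2 (-0.17, adjusted p = 0.091), and Ap3b1 was called without control replicate 2 (-0.15, adjusted p = 0.033). With TG, Hps5 was not called without control replicate 2 (0.16, adjusted p = 0.1) or KO replicate 2 (0.11, adjusted p = 0.27), and Ap3d1 was not called without KO replicate 1 (-0.11, adjusted p = 0.065). Lyst was lower in KO cells with TG (-0.61 ± 0.14, adjusted p = 0.028) but not called without KO replicate 1 (-0.57) or KO replicate 2 (-0.63), both with adjusted p = 0.13.

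Whether TG acted differently in KO and control cells was tested as an interaction, the TG effect in KO cells minus that in control cells. The difference was negative and called for 10 of the 33 members, positive and called for 0, and not called for 23. At an unadjusted p below 0.05 in edgeR, 3 members had a positive and 13 a negative difference, and DESeq2 called 0 positive. With no filter on low counts 12 members were called, 10 negative and 2 positive, the positive ones being Rab38 (0.17, adjusted p = 0.018) and Dtnbp1 (0.25, adjusted p = 0.014); Lyst was gained (-0.43, adjusted p = 0.00026). A filter of 5 CPM in 2 libraries gave 12 negative, with Tyrp1 (-0.089, adjusted p = 0.03) and Pmel (-0.11, adjusted p = 0.049) gained. Over all genes 13.1% were called, 5.95% negative and 7.16% positive, or 224 negative and 447 positive by DESeq2, against 746 and 898 by edgeR. The members' median was -0.15, against 0.00068 over all genes. Of the 10, Slc24a4 had the largest difference (-1.53 ± 0.44, adjusted p = 0.016): it rose in both genotypes and less in KO cells. Without control vehicle replicate 1 or KO vehicle replicate 1 it was -1.26 and -1.23 and not called (adjusted p = 0.1 and 0.22). Met followed with -0.56 ± 0.047 (adjusted p = 1.2e-11), Tspan10 with -0.46 ± 0.070, Gpnmb with -0.41 ± 0.036 (adjusted p = 1.9e-11) and Tyr with -0.41 ± 0.060 (adjusted p = 2.7e-06). Both genes of the actin transport complex differed, Mlph by -0.37 ± 0.052 and Myo5a by -0.33 ± 0.048. Dct differed by -0.18 ± 0.034, Slc45a2 by -0.24 ± 0.058 and Mc1r by -0.26 ± 0.077 (adjusted p = 0.017).

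With low counts filtered, none of the 11 BLOC and AP-3 genes had a called difference over all 8 libraries, with values from -0.18 for Bloc1s3 to 0.19 for Dtnbp1. Over all genes 13.1% were called, and with only 11 genes this lack of calls is not read as a result about them. The large values for Oca2 (-1.18 ± 0.59) and Kit (-0.99 ± 0.54) had wide errors and did not pass the test (adjusted p = 0.2 and 0.26). Pmel (-0.092, adjusted p = 0.11), Tyrp1 (-0.074, adjusted p = 0.1) and Mlana (0.086, adjusted p = 0.3) did not pass either. The Mc1r difference was lost by DESeq2, with no filter and when any of 5 libraries was left out, with adjusted p up to 0.14 without control TG replicate 1. Those libraries were control vehicle replicate 2 (-0.24), control TG replicate 1 (-0.20), KO vehicle replicate 1 (-0.25), KO TG replicate 1 (-0.24) and KO TG replicate 2 (-0.27). Without control TG replicate 2, Slc45a2 was -0.17 and not called (adjusted p = 0.069) and Gpr143 was -0.47 and called (adjusted p = 0.015), where it was otherwise -0.34 (adjusted p = 0.064). Leaving out 1 library also called Lyst (-0.62 without control vehicle replicate 1, -0.60 without control TG replicate 1), Rab38 (0.15 without control TG replicate 1) and Dtnbp1 (0.26 without KO TG replicate 2).

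**Figure D4:**
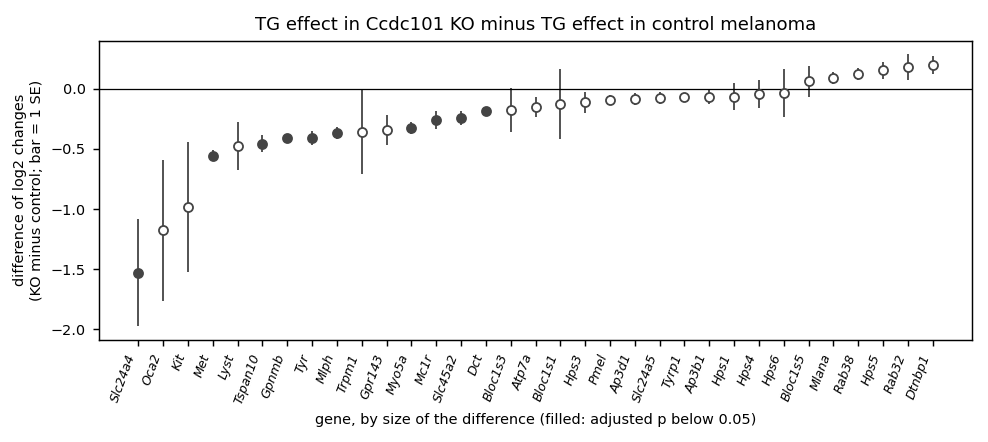
TG effect in KO cells minus TG effect in control cells (y axis, difference of log2 changes with bars of 1 SE) for the 33 tested members (x axis, by size); filled points had an adjusted p below 0.05. All 10 filled points lie below 0, from -1.53 for Slc24a4 to -0.18 for Dct.

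Set side by side, the joint groups show how far single RNAs went. In KO cells with TG the mean level of Kit was 6.22% of that in control cells with vehicle, Oca2 9.15%, Trpm1 16.6% and Mc1r 17.7%. In the KO libraries with TG, Kit had only 5 and 4 counts and Oca2 5 and 3, so their shares are rough. The transporter gene Slc45a2 was at 28.9%, Tspan10 at 28.2%, Mlph at 30.8%, Met at 35.6% and Mlana at 37.9%. Tyr stood at 42.8%, Pmel at 44.4%, Dct at 60.5% and Tyrp1 at 83%. Ap3b1, Ap3d1 and Hps1 were at 134%, 129.9% and 144%, and Bloc1s3 at 204%. These shares are a description of 4 groups that enter several of the comparisons, and carry no test of their own. 14 members were called lower in all 4 pairwise comparisons: Tyr, Dct, Pmel, Mlana, Mc1r, Gpr143, Kit, Met, Slc45a2, Oca2, Slc24a5, Trpm1, Myo5a and Tspan10. Over all 12540 genes tested, 342 (2.73%) were lower in all 4. The 4 comparisons share libraries, so they are not independent. Of these 14, Tyr, Dct, Mc1r, Slc24a5, Trpm1 and Tspan10 are 6 of the 8 members with an M-box core in a window, Kit, Met, Oca2 and Myo5a are 4 of the 21 with a window that lacks it, and Pmel, Mlana, Gpr143 and Slc45a2 are 4 of the 5 for which there was no window. Of the BLOC and AP-3 genes only Hps1 has the core, so this split also follows role, and Ednrb, not tested, is among the 21. By DESeq2, Kit and Oca2 were not called for KO with vehicle. The split was made on the core alone. Met has CACGTG and Oca2 has CATGTG in a window without the core. Of the 10 members with CACGTG in a window, only Met and Trpm1 are among the 14. The share of all genes with the core that were lower in all 4 was not computed. These counts are a description with no test. Tyrp1 was lower in 3 of the 4 comparisons, and Hps1 rose with TG in both genotypes and was not called between genotypes.

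Regulators of melanocytes were read from a list of 22 genes, of which 18 were tested. Mitf had 186 and 192 CPM in KO cells with TG, 460.0 and 449 in KO cells with vehicle, 343 and 343 in control cells with TG and 500.2 and 499.8 in control cells with vehicle. It fell with TG by -1.27 ± 0.035 in KO cells and -0.54 ± 0.034 in control cells, a difference of -0.72 ± 0.049 (adjusted p = 1.9e-14). Sox10, which activates Mitf, had 234 and 223 CPM in KO cells with TG, against 486 and 492 with vehicle, and 377 and 398 in control cells with TG, against 569 and 592 with vehicle. Pax3, another activator of Mitf, went up with TG (0.38 ± 0.041 in KO and 0.34 ± 0.039 in control cells) and was lower in KO cells with TG (-0.20 ± 0.040) and with vehicle (-0.25 ± 0.040). The MITF relatives moved apart under TG: Tfe3 rose to 124 ± 0.349 CPM in KO cells, against 53.3 ± 2.28 with vehicle (SD, n = 2 each), and Tfeb fell to 7.68 ± 0.309 CPM, against 22 ± 1.19. In control cells Tfe3 rose by 1.03 ± 0.053 and Tfeb had a log2 change of -0.97 ± 0.12. Sox9 was 11.5 ± 0.377 CPM in control cells with TG, against 3.83 ± 0.426 with vehicle, and Erbb3, a neuregulin receptor gene, 50.3 ± 2.67 against 111 ± 2.48. Between genotypes, Sox5 was lower in KO cells with TG (-0.82 ± 0.099) and with vehicle (-0.48 ± 0.080), Sox9 with TG (-1.24 ± 0.16) and Tfap2a with vehicle (-0.44 ± 0.050). In all, the list had 6 up and 9 down with TG in KO cells, 7 up and 10 down in control cells, 2 up and 7 down with KO under TG, and 2 up and 7 down with KO under vehicle. That is 83.3%, 94.4%, 50% and 50% of the 18 called, where 70.3%, 71.8%, 31.5% and 25.7% of all genes were called in the same order.

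A further list of 24 melanosome genes gave 21 tested. With TG, 2 rose and 11 fell in KO cells and 8 rose and 10 fell in control cells, so that 61.9% and 85.7% of the 21 were called, where 70.3% and 71.8% of all genes were. Slc7a11, the cystine importer gene that is altered in the subtle gray mouse and favours red-yellow pheomelanin, had 476 ± 1.59 CPM in KO cells with TG, against 16.7 ± 1.53 with vehicle, and 584 ± 36.8 in control cells with TG, against 26.7 ± 0.642 with vehicle. It was 28.6-fold and 21.9-fold higher with TG (adjusted p = 3.6e-41 and 9.7e-42). Bace2, whose protease product cuts PMEL so that fibrils can form, fell 5.0-fold in KO cells and 2.97-fold in control cells. Mreg, the melanoregulin gene, fell 2.8-fold and 2.33-fold, and Mmp14 had a log2 change of -1.11 ± 0.044 in control cells. Rab17 was 0.273 ± 0.135 CPM in KO cells with TG, against 11 ± 0.0988 with vehicle. Between genotypes, 10 of the 21 were lower in KO cells with TG and 3 higher, and 8 lower and 2 higher with vehicle, or 61.9% and 47.6% called against 31.5% and 25.7% of all genes. Bace2 differed by -1.62 ± 0.090 and -0.87 ± 0.053 and Sytl2, a RAB27 effector gene, by -1.41 ± 0.10 and -1.21 ± 0.083. Rab27a, which tethers melanosomes to Mlph, was lower with TG (-0.79 ± 0.045), as was the cystine exporter gene Ctns (-0.69 ± 0.075), while Anxa2 was higher with vehicle (0.80 ± 0.039) and Slc7a11 lower (-0.68 ± 0.082).

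Other subunits of the sorting machinery formed the last list. Of 23 tested subunits of BLOC, AP-3, AP-1 and HOPS outside the 34, 6 rose and 5 fell with TG in KO cells and 7 rose and 6 fell in control cells, so that 47.8% and 56.5% were called, below the 70.3% and 71.8% of all genes. The AP-1 genes Ap1s1 (-0.61 and -0.64), Ap1s2 (-0.83 and -0.61) and Ap1m1 (-0.42 and -0.47) fell in both, and Bloc1s6, the pallidin gene, rose (0.42 and 0.41). With KO, 18 of the 23 were not called under TG and 19 under vehicle, so that 21.7% and 17.4% were called, below the 31.5% and 25.7% of all genes. Ap3m2 was higher in KO cells with vehicle (0.56 ± 0.13), and Ap1s2 lower with TG (-0.46 ± 0.099) and with vehicle (-0.23 ± 0.077).

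The T cells give the level of each member in a cell that makes no melanin. In control melanoma cells with vehicle against resting control T cells with vehicle, 83.7% of all 14824 genes were called (40.8% higher, 43.0% lower). Of the 21 members that the T cell libraries alone could test, 14 were higher in melanoma and 7 lower. The other 12 tested members (Tyr, Mlana, Mc1r, Gpr143, Slc45a2, Oca2, Slc24a5, Slc24a4, Trpm1, Mlph, Rab38 and Tspan10) passed the filter on low counts only through the melanoma libraries, so their difference was fixed by the filter and is not counted. The 7 that were lower in melanoma were Kit, Bloc1s1, Bloc1s3, Hps6, Hps1, Ap3b1 and Lyst. On the scale of all 20 libraries Kit had 5.34 and 5.85 CPM in melanoma, against 70.2 and 75.8 in T cells. Hps1 had 22.1 and 22.3 CPM in melanoma, against 69.5 and 66.6 in T cells. Lyst had 71.8 and 59.3 CPM in melanoma, against 147 and 154 in T cells. Ap3b1 had 137 and 130.3 CPM in melanoma, against 166 and 158 in T cells. None of these 4 overlapped between the cell types. Hps4 and Ap3d1 were close in the 2 cell types (1.21-fold and 1.33-fold higher in melanoma). Mc1r, Gpr143, Oca2 and Slc24a4 had no count in resting vehicle T cells. Taking 3 counts over that group as the floor, Mc1r was at least 1354-fold higher in melanoma, Gpr143 at least 252-fold, Oca2 at least 24.9-fold and Slc24a4 at least 6.44-fold. These 4 are among the 12 members whose direction was fixed by the filter. The values describe measured levels only and are not counted as differences. The cell types differ in everything else as well, so these are descriptions of 2 kinds of cell.

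The low pigment counts in T cells differed between sets of libraries. The 8 control T cell libraries held 20 to 38 counts of Tyrp1 and 11 to 22 of Dct, and the 4 Atp2a2 KO libraries 0 or 1 of each. Per 100 Tyrp1 counts there were 54.1 Dct counts in activated T cells with TG and 58.6 with vehicle, and 50.9 in resting T cells with TG and 53.8 with vehicle, against 57.4 in control melanoma with vehicle. For Pmel the values were 52.5 in activated T cells with TG and 51.4 with vehicle, and 56.4 in resting T cells with TG and 63.5 with vehicle, against 41.9 in control melanoma with vehicle. In Atp2a2 KO T cells Pmel summed to 17 counts over both activated libraries and 9 over both resting ones. The source of these counts was not tested, and no change of Tyrp1, Dct or Pmel with TG was called in T cells. Gpnmb had 67.2 counts per 100 of Tyrp1 in activated T cells with TG and 42.9 with vehicle, and 193 in resting T cells with TG and 315 with vehicle, against 41.3 in control melanoma with vehicle. In resting T cells Gpnmb had 3.99 and 4.56 CPM with TG, against 6.19 and 8.03 with vehicle (-0.73 ± 0.20, adjusted p = 0.001), but without vehicle replicate 2 the change was -0.54 and not called (adjusted p = 0.053), nor was it by DESeq2 (adjusted p = 0.077). Pmel had 0 to 12 counts in the Atp2a2 KO libraries, where Tyrp1 had 0 or 1. Its exons overlap those of Cdk2 and Dgka on the opposite strand by 1.48% and 4.58%, and the part of these genes in its counts was not tested.

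In T cells 21 members were abundant enough to test. In activated cells 9 of the 21 rose, 2 fell and 10 were not called, where 65.0% of 13432 genes were called (32.6% up, 32.4% down). In resting cells 5 rose, 7 fell and 9 were not called, where 69.2% were called (34.1% up, 35.2% down). Fitted without the Atp2a2 KO libraries and the other groups, these counts were 9 and 2 in activated cells and 6 and 7 in resting cells. Lyst, which regulates the size of lytic granules in T cells, moved most: it had 167 and 191 CPM in activated cells with TG, against 32.5 and 31.8 with vehicle, and 292 and 286 in resting cells with TG, against 138 and 145 with vehicle. It rose 5.56-fold in activated cells and 2.05-fold in resting cells (adjusted p = 2.8e-27 and 2.9e-19), with no overlap. Kit had 14 and 13.6 CPM in activated cells with TG, against 37 and 35.2 with vehicle, and 53.7 and 54.6 in resting cells with TG, against 65.9 and 71 with vehicle, and fell, by log2 changes of -1.39 ± 0.089 and -0.34 ± 0.062. Myo5a fell in both as well (-0.58 ± 0.043 and -0.50 ± 0.049), and Bloc1s5 rose in both (0.69 ± 0.11 and 0.79 ± 0.12).

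**Figure D5:**
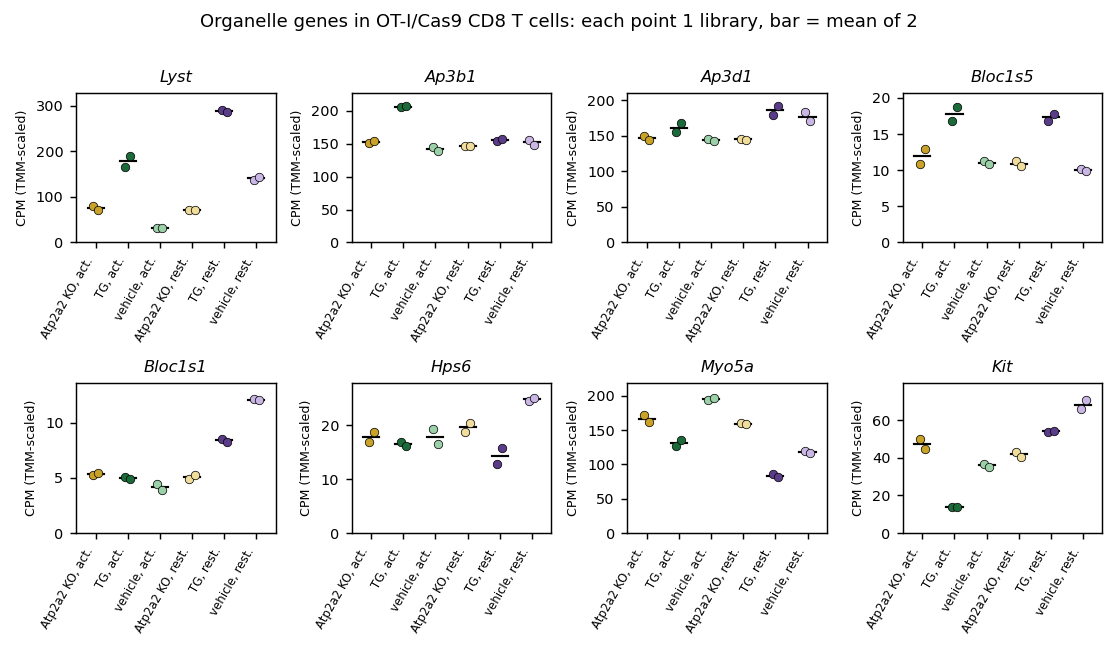
CPM (y axis, from 0, scaled by TMM) of 8 members in the 12 T cell libraries by group (x axis); each point is 1 library and each bar the mean of 2. Lyst is higher with TG than with vehicle in activated and resting cells, and Ap3b1 stands at 205 and 207 CPM in activated cells with TG, above every other library.

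AP-3 genes rose with TG in activated T cells, Ap3b1 by 0.54 ± 0.040 and Ap3d1 by 0.16 ± 0.044, and did not pass the test in resting ones (0.032 ± 0.042 and 0.068 ± 0.044). In activated cells the call of Ap3d1 was lost without TG replicate 2 (0.12, adjusted p = 0.062), and in resting cells it was called without vehicle replicate 1 (0.12) or TG replicate 1 (0.13). Hps4 rose in both states (0.31 and 0.39), Hps1 in activated cells (0.43 ± 0.065), and Hps6 (-0.80 ± 0.11) and Bloc1s1 (-0.53 ± 0.13) fell in resting cells. Other calls were weak. In activated cells Bloc1s3 (0.39) was not called without vehicle replicate 1 (0.22), Hps3 (0.18) was not called without vehicle replicate 1 (0.19), vehicle replicate 2 (0.17) or TG replicate 2 (0.15), and Atp7a (0.28) was not called without vehicle replicate 2 (0.20) or TG replicate 1 (0.26). Gpnmb there (0.73, adjusted p = 0.066) was called without vehicle replicate 2 (1.11) or TG replicate 1 (0.96). In resting cells Hps3 rose (0.39 ± 0.081), Atp7a (0.37) was not called without vehicle replicate 1 (0.30) or TG replicate 1 (0.31), Dtnbp1 (-0.27) was not called without vehicle replicate 1 (-0.23), TG replicate 1 (-0.24) or TG replicate 2 (-0.28), and Hps5 (-0.18) was not called without TG replicate 2 (-0.17).

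Set against resting T cells, the TG effect in control melanoma differed for 16 members, 6 positive and 10 negative. Of these, 14 were among the 21 members that the T cell libraries alone could test. Over all 14824 genes 47.4% were called, some of which those libraries alone could not test. Mlana and Trpm1, among the 16, rest on at most 6 counts a library in T cells and are not read further. Both AP-3 genes had a positive difference, Ap3b1 of 0.55 ± 0.059 and Ap3d1 of 0.43 ± 0.057, as did Bloc1s3 (1.06 ± 0.18). Kit fell more in melanoma (-1.92 ± 0.26, adjusted p = 2.1e-09), and Lyst rose less (-0.56 ± 0.15, adjusted p = 0.0091). Hps4 and Bloc1s5 differed by -0.64 ± 0.12 and -0.85 ± 0.15. Of the 23 further BLOC, AP and HOPS subunits, 12 rose and 4 fell with TG in activated T cells, and 4 rose and 8 fell in resting ones, so that 69.6% and 52.2% were called, where 65.0% and 69.2% of all genes were. Among them the AP-3 mu subunit gene Ap3m1 rose in both (0.53 ± 0.051 and 0.68 ± 0.057) and Ap1s1 fell in both (-0.48 ± 0.057 and -0.88 ± 0.061).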

How the data were processed

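The values are gene counts as deposited by the authors. Alignment used STAR 2.6.0c with GRCm38/mm10 as the genome, and HTSeq did the counting, per the submitters' processing notes. The version, strand setting and annotation of the counting step are not given in the sources used here. Names came from GENCODE M21 for 46005 of 46603 identifiers; the 598 others held 0.0759% of the counts.

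Counts were scaled by TMM and tested with edgeR 4.0.16 in R 4.3.3 (limma 3.58.1), robust quasi-likelihood with default filterByExpr and Benjamini-Hochberg adjustment over all genes tested. The fits held 12540 genes in the 8 melanoma libraries (4 residual degrees of freedom, biological coefficient of variation 2.71%), 13432 in the 12 T cell libraries (6, 2.80%) and 14824 in all 20 (10, 2.77%). A change was called at an adjusted p below 0.05. Each printed SE is the absolute log2 change over the root of its F statistic. The libraries of each group differed beyond sampling noise (chi-square per degree of freedom 1.43 to 3.09). Counting floors cover counting error only. The settings varied were the tool (DESeq2 1.42.0), the scaling (relative log expression, or CPM with no TMM), the filter, a block for replicate number, the groups in the fit, and the omission of single libraries. The code was tested on simulated data.

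The 34 members, their roles and 3 further lists were chosen with earlier results of these data known. All members are accounted for, with the largest called changes of each role in full. In each further list, the 4 called genes that moved most in a comparison could be named if their higher group averaged 10 CPM or more; Mitf, Sox10 and Pax3 are named besides, and values of a gene so named may be given in other comparisons.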

Additional observations from a re-analysis of the deposited data

Results flagged for a closer look

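The TG effect differed between KO and control melanoma, by the interaction term of edgeR, for 10 of 33 members, each with a more negative effect in KO cells, where 13.1% of all genes were called (5.95% negative, 7.16% positive). With no filter on low counts it was called for 12, of which 2 were positive. The differences of log2 changes were -1.53 for Slc24a4, -0.56 for Met, -0.46 for Tspan10, -0.41 for Gpnmb and -0.41 for Tyr. They were -0.37 for Mlph, -0.33 for Myo5a, -0.26 for Mc1r, -0.24 for Slc45a2 and -0.18 for Dct. Mc1r was not called by DESeq2 (-0.25, adjusted p = 0.13), with no filter (-0.21, adjusted p = 0.088) or without several single libraries. Slc24a4 was not called without control vehicle replicate 1 (-1.26) or KO vehicle replicate 1 (-1.23). Slc45a2 was not called without control TG replicate 2 (-0.17). Gpnmb is the member whose direction was called opposite ways in KO and control cells.

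The TG effect differed between control melanoma and resting control T cells for 14 of the 21 members testable in the T cell libraries alone. Over all 14824 genes 47.4% were called, some of which those libraries alone could not test. Mlana and Trpm1 were called too, but rest on at most 6 counts a library in T cells and are not counted. The TG effect was more positive in melanoma for Bloc1s3 (1.06), Gpnmb (0.94), Ap3b1 (0.55), Ap3d1 (0.43), Hps1 (0.35) and Myo5a (0.30). For Hps1 the difference without control melanoma TG replicate 2 was 0.22 and not called (adjusted p = 0.12). It was more negative in melanoma for Kit (-1.92), Bloc1s5 (-0.85), Atp7a (-0.67), Hps4 (-0.64), Lyst (-0.56), Hps3 (-0.48), Hps5 (-0.48) and Dtnbp1 (-0.47). No group held enough libraries to look for single outlying ones.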

How the results depend on the processing

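Over all alternatives run, 2864 of 2965 values of single members kept their side of the threshold, 77 lost a call, 24 gained one and 0 changed direction with a call; 48 values called neither way changed sign. The 77 do not cover every lost call. With the filter of 5 CPM, 29 members were called for TG in control cells, against 30. The counts were 30 against 31 for TG in KO cells and 19 against 20 for KO with vehicle. None of these losses is among the 77. The count of members called stayed within 1.5 times in all 98 settings. DESeq2 called fewer genes of the whole table: 1508 (561 higher, 947 lower) for KO with vehicle, against 3218, 2126 for KO with TG, against 3956, and 671 for the interaction, against 1644. For KO it called 23 members with TG and 16 with vehicle, against 26 and 20, with all of its calls lower in KO cells. It called 8 for the interaction, against 10. Leaving out 1 library gave 1090 to 1565 calls over all genes for the interaction, the lowest without KO vehicle replicate 1, and 2615 to 3408 for KO with TG, the lowest without KO TG replicate 2. Without TMM scaling the summed CPM of the 34 members was 15512.5 in KO cells with TG (16011.1 with it), 20892.2 in KO cells with vehicle (19895.3), 20218.3 in control cells with TG (20981.9) and 23917.5 in control cells with vehicle (23540.2), which places KO vehicle above control TG where TMM places it below. Replicate numbers did not pair the melanoma libraries (correlations of deviations -0.14 to 0.091). The replicate block gave 31 members called for TG in KO cells, 30 for TG in control cells, 25 for KO with TG, 20 for KO with vehicle and 10 for the interaction, and removed the call of Lyst for KO with TG. Crossing the numbers for KO with vehicle, an alternative chosen after seeing the data, gave 3358 calls and 20 members. Low counts limit Kit, Oca2, Trpm1, Slc24a4 and Bloc1s1.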
